A study of Mus musculus with 23 samples.

Results

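The let-7 family of miRNAs was examined in 23 small RNA libraries, each made from a mouse retina collected on postnatal day 90. Its members were the mature rows of the deposited count matrix whose locus name begins with let-7, and 13 of the 903 mature rows met this rule. The groups were P23H+/- KI mice treated with DNA nanoparticles carrying genomic mouse rhodopsin (mouse gRho, 7 mice, 11 libraries), P23H+/- KI mice treated with nanoparticles of genomic human rhodopsin (human gRHO, 2 mice, 3 libraries), P23H+/- KI mice given saline (1 mouse, 2 libraries), P23H+/- KI mice left uninjected (3 mice, 5 libraries) and wild-type C57B mice (WT, 2 mice, 2 libraries). P23H+/- KI mice carry 1 knocked-in copy of a rhodopsin gene whose product misfolds, a model of inherited rod degeneration, and the injected groups carry it too. Counts of both eyes of a mouse were summed, on a reading of the sample titles as animal and eye that the labels do not state. Title numbers that may be cages never recurred across groups, so treatment and that number cannot be told apart, and no value within one number could be given.

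Let-7 is among the oldest known miRNA families and controls developmental timing from worms to mammals. LIN28 proteins block the processing of most let-7 precursors in progenitor cells, and mature let-7 accumulates as cells differentiate and represses growth and progenitor genes. In the developing retina let-7 acts with miR-9 and miR-125 on the timing of cell fates, and in zebrafish Müller glia its loss accompanies the return to a progenitor state.

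The family is defined by its seed, bases 2 to 8 of the 5p strand, which sets target choice. The 5p sequences of the 7 most abundant rows and of let-7f, whose 2 copies were both low, are given here because members differ mostly outside the seed, and let-7j because its seed differs. They are RefSeq sequences for GRCm38.p6, 5′ to 3′, with the seed in capitals.
let-7a-5p: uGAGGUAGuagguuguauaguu
let-7c-5p: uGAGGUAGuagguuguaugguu
let-7d-5p: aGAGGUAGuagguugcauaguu
let-7i-5p: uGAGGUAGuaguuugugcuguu
let-7e-5p: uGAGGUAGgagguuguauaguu
let-7b-5p: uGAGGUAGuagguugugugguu
let-7f-5p: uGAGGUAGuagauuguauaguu
let-7j: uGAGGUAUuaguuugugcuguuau
The seed GAGGUAG was shared by 10 of the sequences compared, including miR-98-5p, and let-7j carried GAGGUAU. Counted from 1 at the 5′ end of let-7a-5p, let-7c-5p differed by A19G alone, let-7e-5p by U9G, let-7f-5p by G12A, let-7b-5p by A17G and A19G, and let-7d-5p by U1A and U16C. Let-7i-5p was the most distant of these, with G12U, A17G, U18C and A19U.

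Several loci encode one 5p sequence. Let-7a-5p lies in the hairpins of let-7a-1 and let-7a-2, let-7c-5p in those of let-7c-1 and let-7c-2, and let-7f-5p in those of let-7f-1 and let-7f-2. The 3p strands do differ between these copies, and are shown because a row could in principle be told from its copy by them.
let-7a-1-3p: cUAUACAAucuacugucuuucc
let-7a-2-3p: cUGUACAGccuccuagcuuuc
let-7c-2-3p: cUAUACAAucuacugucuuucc
let-7c-1-3p: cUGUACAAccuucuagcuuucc
Bases 2 to 8 are again in capitals. The 3p strands of let-7a-1 and let-7c-2 were identical, although these loci lie on different chromosomes. Deposited rows carry a locus name without an arm. Every value below is that of the row, and neither the strand nor the copy of origin can be read from it.

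In RefSeq coordinates (GRCm38.p6), let-7a-1 is at chr13:48538179-48538272 on the minus strand, with 261 bases between it and let-7f-1 and 1714 between let-7f-1 and let-7d, all 3 on that strand in exons of the long noncoding RNA gene 6720427I07Rik (GENCODE vM21). Let-7c-2 at chr15:85706603-85706697 on the plus strand lies 621 bases before let-7b, both in exons of Lncppara. Let-7f-2 and mir-98 are 785 bases apart on chromosome X, in an intron of the ubiquitin ligase gene Huwe1. Let-7a-2 lies in an intron of 3110039I08Rik on chromosome 9, let-7g in an intron of Wdr82 on chromosome 9, let-7c-1 in an intron of Mir99ahg on chromosome 16 and let-7e in an intron of Spaca6 on chromosome 17. Let-7i lies in an exon of D630033A02Rik on chromosome 10, and let-7j and let-7k overlap no other annotated gene on their strand.

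The depth ran from 5968388 to 16048954 mature miRNA reads per library, and levels are counts scaled to these reads (CPM). The 903 mature rows together accounted for 10.4% to 19.5% of the mature reads, so most mature reads stand in no row of the matrix. Over 3% rRNA reads were found in 6 libraries, namely those of uninjected mice 2 and 3 and of mouse gRho mouse 6, with the left eye of mouse gRho mouse 2 and the right eye of mouse gRho mouse 3. The photoreceptor miRNAs mir-182, mir-183 and mir-96 were detected in every library, with summed levels of 52.9 to 1101 CPM, and the neuronal rows of mir-124 and mir-9 summed to 2612 to 13478 CPM. The right retina of the mouse gRho group's mouse 1 stood lowest in the photoreceptor rows, with a mean log2 difference of -3.90 from the median library. Vessel rows summed to 746 to 2888 CPM and the 2 red blood cell rows in the table to 77.9 to 2285 CPM. The 3 leukocyte rows used summed to 20.3 to 67.7 CPM. Rows of pigment epithelium and Müller glia summed to 53.7 to 298 CPM, and those of surface epithelium, lens and cornea to 17.3 to 113 CPM. The 3 muscle rows used summed to 67.4 to 1149 CPM, with a median of 649 CPM beside 691 CPM for the photoreceptor rows. Leukocyte mir-155, muscle mir-1a-1, mir-1a-2 and mir-206, and liver mir-122 jumped between 2 levels and were left out. The part of these tissues in the let-7 values was not tested.

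A pair of rows carried nearly all let-7 reads. Let-7a-1 and let-7c-2 ranked 1 and 2 among all 903 mature rows by total reads, and together made up 96.4% to 99.2% of let-7 reads in each library. All let-7 rows together took 2.88% to 6.93% of the mature reads, with a median of 5.17%. Of the reads that stand in a mature row they took 18.5% to 53.5%, with a median of 43.7%. How much of the mature reads in no row is let-7 is not known. Over 15 mice the median was 28298 CPM for let-7a-1 and 23976 CPM for let-7c-2. Let-7d followed at a median of 981 CPM, ranking 13. The next 4 rows were far lower, at medians of 28.8 CPM for let-7i, 19.7 CPM for let-7e, 14.8 CPM for let-7b and 13.4 CPM for let-7c-1. Let-7f-1, let-7f-2, let-7a-2 and let-7g had medians of 1.51, 1.35, 1.29 and 0.911 CPM. Let-7j and let-7k, with 44 and 19 reads in all 23 libraries, were listed at 0 in 4 and 10 libraries.

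**Figure D1:**
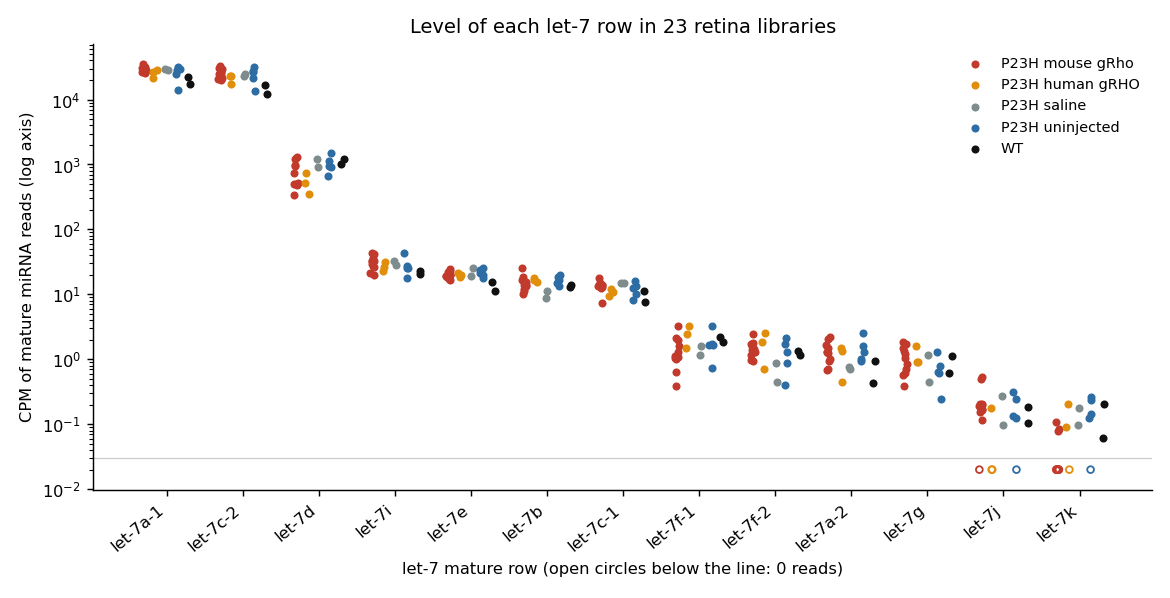
Level of each let-7 row in 23 libraries, in CPM of mature miRNA reads on a log axis, coloured by group, with open circles below the line for libraries with 0 reads. Let-7a-1 and let-7c-2 stand at 11985 CPM or above in every library, let-7d between 334 and 1491 CPM, and the other rows below 50 CPM.

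The order of the rows held from mouse to mouse at the top and dissolved at the bottom. Let-7a-1 was above let-7c-2 in 15 of 15 mice and in 22 of 23 libraries. In the exception, a right eye in the mouse gRho group (mouse 1), the values were 30334 CPM of let-7a-1 and 30836 CPM of let-7c-2. Let-7i was above let-7e in 15 of 15 mice, let-7e above let-7b in 14 and let-7b above let-7c-1 in 13. For let-7i and let-7e the gap was within counting error in uninjected mouse 1, at 548 against 547 reads. The same held in uninjected mouse 2, at 176 against 175 reads, and in human gRHO mouse 2, at 225 against 213 reads. In mouse gRho mouse 4 the gap was also small, at 550 against 489 reads. Neighbours among the low rows did not separate: let-7f-1 was above let-7f-2 in 8 of 15 mice, let-7f-2 above let-7a-2 in 10, and let-7a-2 above let-7g in 9. Counting error is large there. The highest let-7a-2 library, of uninjected mouse 2, held 18 reads, or 2.58 CPM with a 95% Clopper-Pearson interval of 1.53 to 4.08 CPM. The same library had 0 reads of let-7j, with an upper Clopper-Pearson bound of 0.528 CPM, and the simpler limit of 3 reads corresponds to 0.430 CPM. Such bounds cover counting error only.

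Copies that encode one 5p sequence differed by orders of magnitude in 2 of 3 pairs. Let-7a-1 exceeded let-7a-2 by a median ratio of 21986 over 15 mice (range 10975 to 41298), higher in 15 of 15 mice (exact two-sided sign-flip permutation test, p = 6.1e-05, the smallest it can give, 9.16e-05 after Benjamini-Hochberg adjustment over 3 pairs). Let-7c-2 exceeded let-7c-1 by a median ratio of 1761 (range 1451 to 2482), higher in 15 of 15 mice, with the same p values in the exact permutation test. The spread of the log2 ratio over mice was small beside its size, with an SD of 0.39 on a mean of 13.94 for let-7a and an SD of 0.25 on a mean of 10.77 for let-7c.

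No such gap was seen between let-7f-1 and let-7f-2. Their ratio had a median of 1.31 and ran from 0.571 to 3.80, with a mean log2 ratio of 0.15 (SD 0.56, n = 15 mice, exact permutation p = 0.339, adjusted p = 0.339). Both let-7f rows stood near 1 CPM, with 392 and 327 reads in all libraries. Rows of copies can share reads, and how the authors' counting divided them is not given in the sources used here. The authors listed 5.52% to 17.9% of the miRNA reads of a library under the header crossmapped miRNA. How much of this is let-7 is not known. The ratios are therefore those between deposited rows.

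Reads assigned to let-7 hairpins outside the mature sequence were few and followed another order. In the precursor class 11 let-7 loci had 1110 reads in all, 5.34% of the class, led by let-7b with 514, let-7d with 238 and let-7f-2 with 176. Let-7a-1 and let-7c-2, the top mature rows, had 26 and 20 precursor reads. In the stemloop class 10 let-7 loci had 1422 reads, 15.5% of the class, led by let-7c-1 with 646, let-7a-1 with 328 and let-7f-2 with 118. In the unannotated class 4 let-7 loci had 12 reads.

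Across groups, let-7a-1 stood at 25301, 28977 and 32892 CPM (lowest, median and highest of 7) in mouse gRho mice, at 23799 and 28189 CPM in human gRHO mice, at 29026 CPM in the saline mouse, at 30769, 28298 and 19793 CPM in uninjected mice, and at 22014 and 17403 CPM in WT mice. Both WT mice lay below every mouse gRho mouse, in a comparison where 13.1% of all 382 rows tested did not overlap, and uninjected mouse 3 lay below WT mouse 1. Let-7c-2 stood at 19979, 26431 and 29405 CPM (lowest, median and highest) in mouse gRho mice, at 20105 and 22745 CPM in human gRHO mice, at 23976 CPM in the saline mouse, at 28755, 28002 and 17596 CPM in uninjected mice, and at 16480 and 11985 CPM in WT mice. In this row both WT mice lay below all 3 uninjected mice in CPM of mature reads, where 26.2% of all rows did not overlap. They also lay below all 7 mouse gRho mice, where 13.1% of all rows did not overlap. With TMM-scaled CPM, which corrects for the make-up of each library, let-7c-2 overlapped between uninjected and WT mice.

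Let-7d stood at 486, 746 and 1198 CPM (lowest, median and highest) in mouse gRho mice, at 437 and 727 CPM in human gRHO mice, at 1047 CPM in the saline mouse, at 1075, 1118 and 943 CPM in uninjected mice, and at 1223 and 1032 CPM in WT mice. Both human gRHO mice lay below all 3 uninjected mice, and 27.5% of all rows did not overlap in that comparison. The mouse gRho mice spread over values below and above the uninjected mice. In bulk retina, fewer cells of a type and less RNA per cell cannot be told apart.

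**Figure D2:**
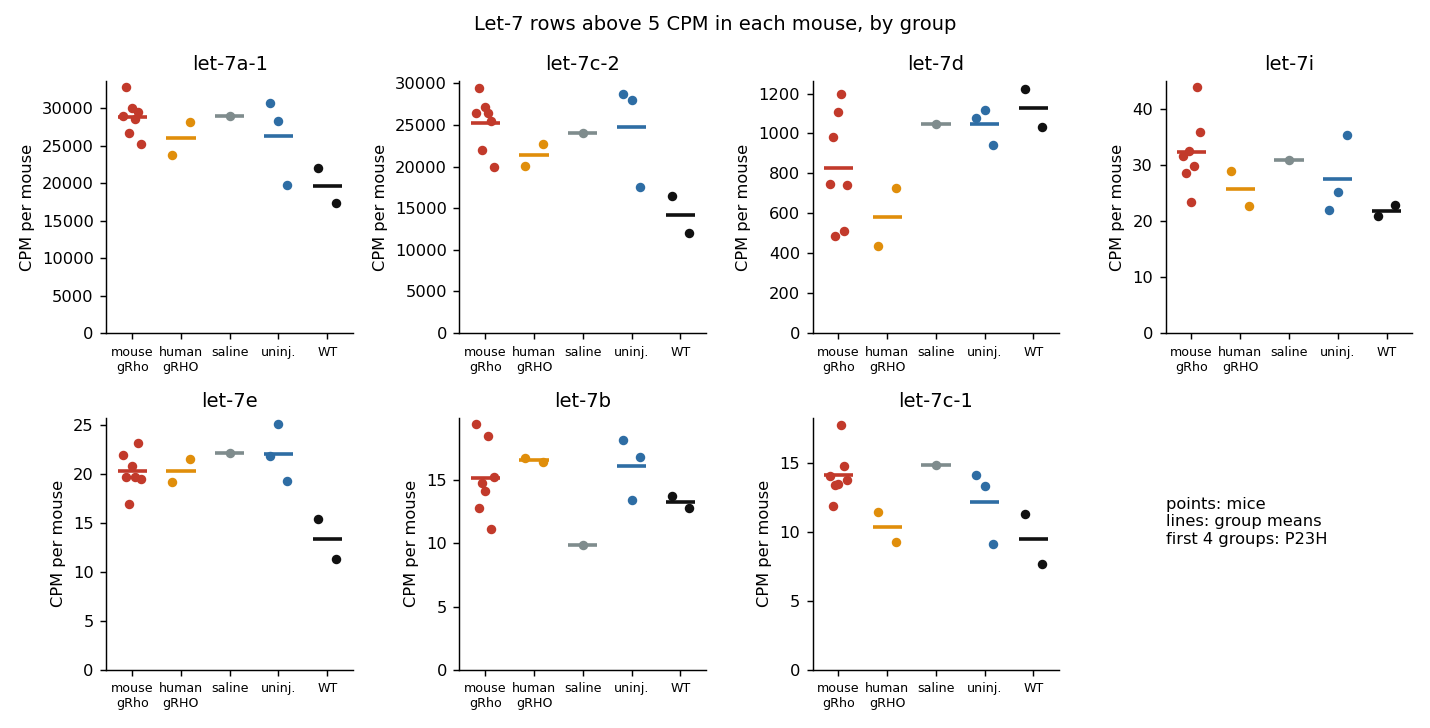
CPM of the 7 let-7 rows above 5 CPM in each mouse, with points for mice and lines for group means, on axes that start at 0. In this unit WT mice lie below the uninjected mice for let-7c-2 and let-7e, where 26.2% of all rows did not overlap. Both rows overlap between these groups with TMM-scaled CPM. The 2 human gRHO mice lie below the uninjected mice for let-7d, where 27.5% of all rows did not overlap.

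Among the rows of moderate level, let-7e stood at 16.9, 19.7 and 23.2 CPM (lowest, median and highest) in mouse gRho mice, at 19.2 and 21.5 CPM in human gRHO mice, at 22.1 CPM in the saline mouse, at 21.8, 25.1 and 19.3 CPM in uninjected mice, and at 15.4 and 11.3 CPM in WT mice. Both WT mice lay below all 3 uninjected mice in CPM of mature reads, where 26.2% of all rows did not overlap. With TMM-scaled CPM these groups overlapped. Both WT mice also lay below all 7 mouse gRho mice in CPM of mature reads, where 13.1% of all rows did not overlap. Let-7i stood at 23.5, 31.6 and 43.8 CPM in mouse gRho mice, at 22.7 and 28.8 CPM in human gRHO mice, at 30.8 CPM in the saline mouse, at 21.9, 25.2 and 35.4 CPM in uninjected mice, and at 22.9 and 20.8 CPM in WT mice. Its mouse gRho and uninjected values overlapped. Let-7b averaged 15.2 ± 3.0 CPM in mouse gRho mice (SD, n = 7), 16.6 ± 0.2 CPM in human gRHO mice (SD, n = 2), 16.1 ± 2.4 CPM in uninjected mice (SD, n = 3) and 13.3 ± 0.7 CPM in WT mice (SD, n = 2), with 9.89 CPM in the saline mouse. Let-7c-1 averaged 14.1 ± 1.8 CPM in mouse gRho mice (SD, n = 7), 10.4 ± 1.5 CPM in human gRHO mice (SD, n = 2), 12.2 ± 2.7 CPM in uninjected mice (SD, n = 3) and 9.48 ± 2.6 CPM in WT mice (SD, n = 2), with 14.9 CPM in the saline mouse.

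The comparison of uninjected P23H+/- KI with WT retinas addresses the effect of the rhodopsin mutation in untreated eyes. Of 11 tested let-7 rows, 0 passed the threshold of 0.05 on the Benjamini-Hochberg adjusted p (quasi-likelihood test of edgeR, 3 against 2 mice), where 1.57% of all 382 rows tested did. An unadjusted p under 0.05 was reached by 0 let-7 rows and by 63 of all 382 rows, and DESeq2 also called 0 let-7 rows. Let-7j and let-7k were not tested because they never reached 10 reads in a mouse. The log2 fold change was 0.01 for let-7a-1 (SE 0.24, 95% interval -0.50 to 0.52), 0.40 for let-7c-2 (SE 0.26, -0.15 to 0.95), 0.30 for let-7e (SE 0.23, -0.19 to 0.79) and -0.54 for let-7d (SE 0.38, -1.34 to 0.26). These intervals leave room for changes of either sign.

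The scale mattered in this comparison. With TMM factors 4 let-7 rows were higher and 7 lower, and with mature reads alone 8 were higher and 3 lower, because the median of all 382 rows moved up by 0.43 (log2). Relative to that median the family stood close in both, at a let-7 median of -0.15 against -0.09 for all rows with TMM, and at 0.33 against 0.34 with mature reads. In CPM of mature reads, let-7c-2, let-7e and let-7a-2 were higher in all 3 uninjected mice than in both WT mice, which is 3 of 11 rows where 26.2% of all rows did not overlap. With TMM-scaled CPM, let-7a-2 was higher and let-7d and let-7f-1 were lower in all uninjected mice, where 24.6% of all rows did not overlap. Both counts are near the share among all rows.

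Mouse gRho and uninjected retinas differ by both the construct and the injection. With 1 saline mouse as the only injected control, construct and injection cannot be told apart, here and for human gRHO. Of 11 let-7 rows 0 passed (edgeR quasi-likelihood, n = 7 and 3 mice), as did 0.0% of the 382 rows, of which 18 had an unadjusted p under 0.05 with none in let-7. DESeq2 called 0 let-7 rows. The smallest p in the family was that of let-7i, which differed by 0.44 on the log2 scale (SE 0.21, 95% interval -0.001 to 0.883, p = 0.0507 and adjusted p = 0.913 in edgeR). Let-7a-1 differed by 0.30 (SE 0.19, interval -0.09 to 0.69), let-7c-2 by 0.19 (SE 0.20, interval -0.22 to 0.61) and let-7d by -0.15 (SE 0.29, interval -0.76 to 0.46). The let-7 median of 0.19 stood beside 0.08 for all rows, and 0 let-7 rows were without overlap between the groups, where 3.14% of all rows were, on either scale.

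Human gRHO against uninjected retinas gave 0 calls among 11 let-7 rows (edgeR quasi-likelihood, n = 2 and 3 mice), where 0.0% of all rows were called and 10 of 382 rows had an unadjusted p under 0.05, none of them let-7. DESeq2 called 0 let-7 rows here too. Let-7d had a log2 fold change of -0.67 (SE 0.39, 95% interval -1.49 to 0.16) and was the 1 let-7 row whose groups did not overlap, where 27.5% of all rows did not in CPM of mature reads and 25.7% did not with TMM-scaled CPM. Let-7a-1 differed by 0.14 (SE 0.24) and let-7c-2 by -0.05 (SE 0.26), and the sign of each depended on the scale. The let-7 median was 0.11 against 0.01 for all rows.

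The remaining pairs of P23H+/- KI groups showed the same absence of calls. In human gRHO against mouse gRho retinas, which asks whether the 2 constructs differ, 0 of 11 let-7 rows passed (edgeR, n = 2 and 7 mice) where 0.0% of all rows did, 11 of 382 rows but no let-7 row having an unadjusted p under 0.05. Let-7d differed by -0.52 (SE 0.35, 95% interval -1.25 to 0.22), let-7c-2 by -0.24 (SE 0.23, interval -0.73 to 0.24) and let-7a-1 by -0.16 (SE 0.22, interval -0.61 to 0.29). Let-7c-1 was lower in both human gRHO mice than in all mouse gRho mice, where 6.81% of all rows did not overlap in CPM of mature reads and 7.59% did not with TMM-scaled CPM. The saline mouse against uninjected mice gave 0 let-7 calls (edgeR, n = 1 and 3 mice) where 0.0% of all rows were called and 13 rows had an unadjusted p under 0.05, none in let-7. This comparison assumes that the single saline mouse varies like the others. Let-7a-1, let-7c-2 and let-7d differed by 0.41 (SE 0.30), 0.22 (SE 0.32) and 0.29 (SE 0.48). DESeq2 called 0 let-7 rows in both.

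Mouse gRho against WT retinas, in which mutation and treatment are combined, gave 0 calls among 11 let-7 rows (edgeR, n = 7 and 2 mice), where 3.14% of all 382 rows were called and DESeq2 called 0 let-7 rows. An unadjusted p under 0.05 was reached by 2 of 11 let-7 rows, a share close to that of 69 among all 382 rows. Let-7c-2 differed by 0.59 on the log2 scale (SE 0.24, edgeR adjusted p = 0.174) and let-7d by -0.69 (SE 0.32, edgeR adjusted p = 0.268). Let-7a-1 differed by 0.31 (SE 0.22, 95% interval -0.15 to 0.77) and let-7e by 0.36 (SE 0.21, interval -0.07 to 0.80). In CPM of mature reads, 5 of 11 let-7 rows (let-7a-1, let-7c-1, let-7c-2, let-7e and let-7i) were higher in all 7 mouse gRho mice than in both WT mice, where 13.1% of all rows did not overlap. With TMM-scaled CPM 3 rows were higher and let-7d was lower, where 15.7% of all rows did not overlap. The median of all rows moved by 0.25 between these scales. The 3 comparisons with uninjected mice share those mice, as both comparisons with WT share theirs.

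**Figure D3:**
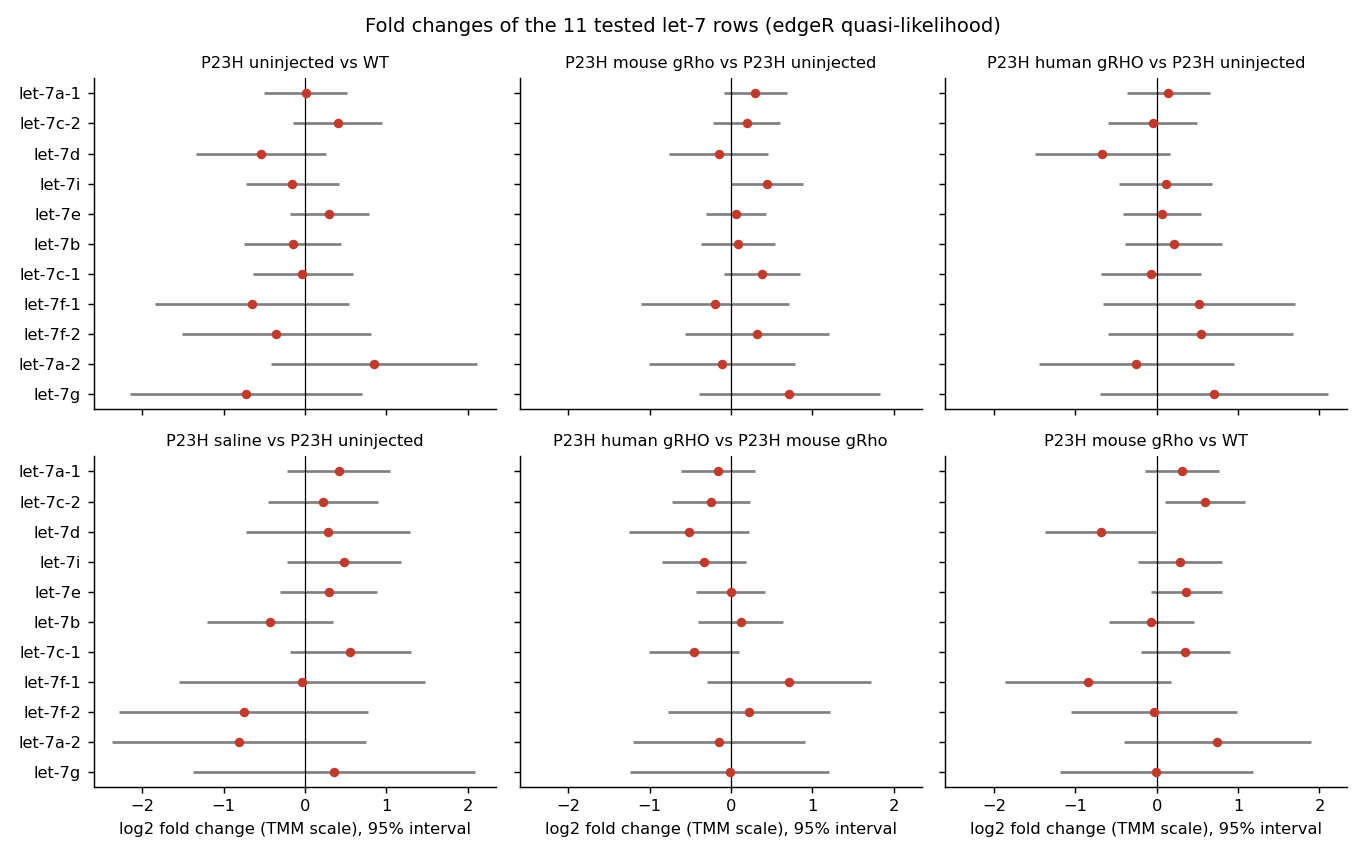
Log2 fold change (TMM scale) of the 11 tested let-7 rows in 6 comparisons, with 95% intervals from edgeR, first-named group over second. Nearly all intervals cross 0, the exceptions being let-7c-2 and let-7d in mouse gRho against WT, and those of the 4 low rows at the bottom of each panel are the widest.

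Ratios between rows of a library do not depend on the scale. The ratio of let-7c-2 to let-7a-1 ran from 0.689 to 0.990 over 15 mice, with a median of 0.864. It averaged 0.874 ± 0.051 in mouse gRho mice (SD, n = 7), 0.826 ± 0.027 in human gRHO mice (SD, n = 2), 0.938 ± 0.050 in uninjected mice (SD, n = 3) and 0.719 ± 0.042 in WT mice (SD, n = 2), with 0.826 in the saline mouse. Both WT mice, at 0.749 and 0.689, lay below all 13 P23H+/- KI mice, the lowest of which stood at 0.790. How many other pairs of rows separate the WT mice in this way was not counted, here or for the next ratio. Each WT value comes from a single library, and between single libraries the gap nearly closed. The left eye of mouse gRho mouse 2 alone held 20960 CPM of let-7c-2 beside 27960 CPM of let-7a-1. That is a ratio close to the one of WT mouse 1.

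The ratio of let-7d to let-7a-1, rows of one genomic cluster, went the other way. It averaged 0.0285 ± 0.0091 in mouse gRho mice (SD, n = 7), 0.0221 ± 0.0053 in human gRHO mice (SD, n = 2), 0.0407 ± 0.0064 in uninjected mice (SD, n = 3) and 0.0575 ± 0.0027 in WT mice (SD, n = 2), with 0.0361 in the saline mouse. The WT values of 0.0556 and 0.0593 lay above all P23H+/- KI mice, the highest at 0.0476. Each WT value comes from a single library, and between single libraries this separation did not hold. The right eye of uninjected mouse 3 alone held 921 CPM of let-7d beside 14182 CPM of let-7a-1. That is a higher ratio than in either WT library. The ratios of let-7c-2 and of let-7d share let-7a-1 and were picked for testing after their values were seen. In uninjected against WT mice the log2 ratio differed by 0.38 for let-7c-2 over let-7a-1 and by -0.51 for let-7d over let-7a-1, each with p = 0.2 in an exact two-sided permutation test, the smallest that 3 against 2 mice allow. In mouse gRho against WT mice the differences were 0.28 and -1.08, each with p = 0.0556 in the exact permutation test, again the smallest possible.

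**Figure D4:**
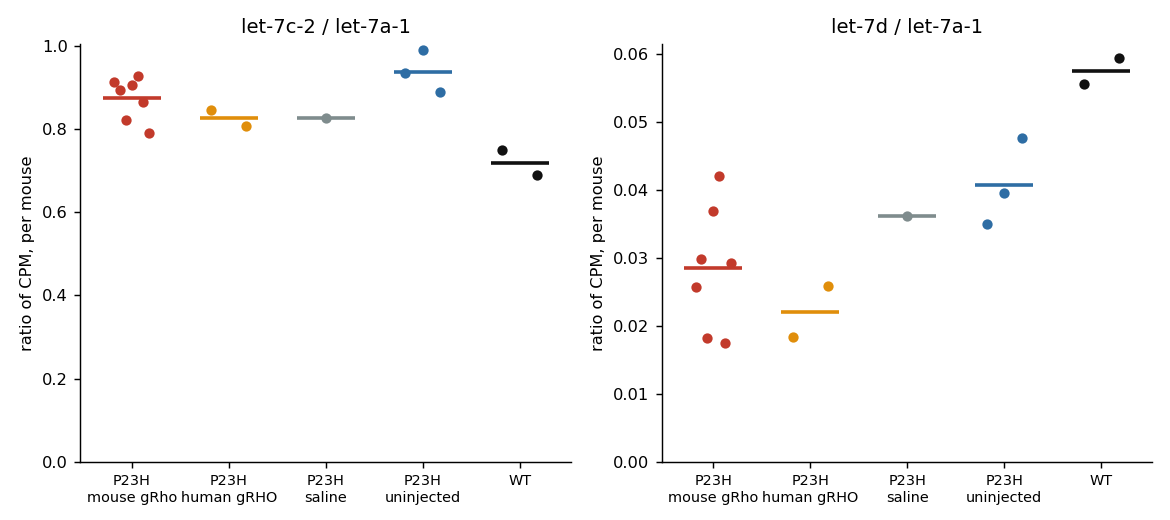
Ratio of let-7c-2 to let-7a-1 and of let-7d to let-7a-1 in each mouse by group, with lines for group means and axes that start at 0. The 2 WT mice lie below all P23H+/- KI mice in the first ratio, at 0.689 and 0.749, and above them in the second, at 0.0556 and 0.0593. Each WT value comes from a single library. Taken alone, the left eye of mouse gRho mouse 2 comes close to WT mouse 1 in the first ratio. The right eye of uninjected mouse 3 alone exceeds both WT mice in the second. The ratios were picked after their values were seen, and how many other pairs of rows separate WT mice was not counted.

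The eyes of 8 mice gave the spread between single libraries of a mouse. Library error and real differences between the retinas cannot be told apart in it. For let-7a-1 the right and left eyes differed by a median of 0.15 (log2, absolute) and by at most 0.83, in uninjected mouse 3, at 14182 CPM in the right eye and 25191 CPM in the left. Both of those libraries held over 3% rRNA reads. For let-7d the median was 0.48 and the maximum 1.91, in mouse gRho mouse 2, at 1254 CPM in the right eye and 334 CPM in the left, whose library held 6.20% rRNA reads. The part of rRNA in these gaps was not tested. In log2 CPM the SD between eyes of a mouse was 0.64 for let-7d, against 0.44 between mice within groups, and 0.24 for let-7a-1, against 0.20 between mice. Let-7e had an SD of 0.18 between eyes, against 0.17 between mice within groups. The SD between eyes is that of a single library, whereas the SD between mice uses counts summed over both eyes in 8 mice. Summing both eyes lowers that spread, so these SDs cannot be compared directly.

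**Figure D5:**
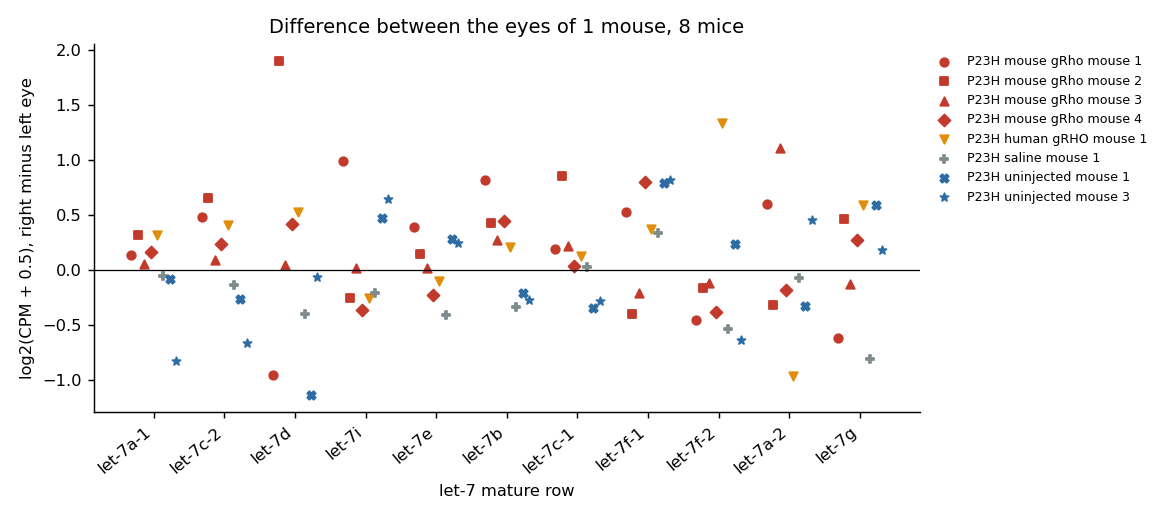
Difference between right and left eye in log2(CPM + 0.5) for the 11 tested let-7 rows in 8 mice. Let-7d spreads from -1.14 in uninjected mouse 1 to 1.91 in mouse gRho mouse 2, whereas let-7e stays within 0.41 of 0 in every mouse.

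The loci that share a seed or a cluster with let-7 had no calls either. mir-98, with the let-7 seed, averaged 25.8 ± 6.9 CPM in mouse gRho mice (SD, n = 7), 24.9 ± 7.9 CPM in human gRHO mice (SD, n = 2), 21.8 ± 2.3 CPM in uninjected mice (SD, n = 3) and 29.6 ± 8.6 CPM in WT mice (SD, n = 2), with 27.0 CPM in the saline mouse. Together with mir-99a, mir-99b, mir-100, mir-125a, mir-125b-1 and mir-125b-2, which neighbour let-7 loci in conserved clusters, it gave 0 of 7 rows past the threshold in each of the 6 comparisons (edgeR), with a smallest adjusted p of 0.153 in uninjected against WT mice. In that comparison an unadjusted p under 0.05 was reached by 3 of the 7 rows, and by 63 of all 382 rows. mir-99b differed by 0.93 on the log2 scale (SE 0.31, 95% interval 0.28 to 1.58), mir-125b-1 by 0.57 (SE 0.24, interval 0.07 to 1.07) and mir-98 by -0.93 (SE 0.35, interval -1.67 to -0.20). Without WT mouse 1, which leaves a single WT mouse, these 3 differed by 1.76, 0.83 and -1.24 (edgeR). Their lowest sizes with another mouse left out were 0.55, 0.50 and -0.27. The mir-125b-2 row had a median of 70.0 CPM over mice, mir-99b one of 45.0 CPM and mir-99a one of 1.50 CPM.

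By root mean square difference of centred log2(CPM + 0.5) over 15 mice, the rows nearest to the mean let-7 profile were mir-24-1 at 0.156, mir-140 at 0.179 and mir-362 at 0.179, out of 364 rows compared with a median of 0.470. Their mouse medians were 38.4, 102 and 88.7 CPM. The mean let-7 profile itself had an SD of 0.14 over mice, and all points share libraries and depth. A row that did not vary at all would therefore lie at about 0.14 from it. The ranking picks out steady rows and cannot show that they follow let-7.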

How the data were processed

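Per the labels' protocols, retinas were frozen, RNA was taken with Trizol and libraries were made with a NEXTflex small RNA v3 kit. The deposited matrix holds whole-number counts for each miRNA locus in 4 classes of sequence, beside the authors' table of aligned reads in each library. DESeq2 is named, without its version, in the submitters' processing notes. No source used here gives the aligner, the counter, the annotation or the build. Sequences and coordinates are RefSeq's (GRCm38.p6), and all 13 let-7 rows matched by name.

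CPM is the deposited count over the mature miRNA reads of the library, or of both eyes summed. WT libraries were counted as 2 mice. If the titles were misread, p-values measure only the spread between these sums, which may be technical. No matrix column was unused (0). Of 337 rows with 30 reads in a library, 65 (0 of let-7) jumped between 2 levels and were set aside. Testing covered the 382 rows that reached 10 counts in 3 or more of the 15 mice, and used edgeR 4.0.16 (quasi-likelihood, TMM, 5 groups in one fit) in R 4.3.3, with Benjamini-Hochberg adjustment at 0.05, checked on simulated data. DESeq2 1.42.0 was an alternative. Ratios were tested in Python 3.11.15 on log2(CPM + 0.5) by exact permutation.

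Members, lists, the rule for rows set aside and tests were chosen with earlier results of these data known. Named rows are every let-7 row, mir-98, 6 cluster neighbours and the 3 rows nearest to the mean let-7 profile.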

Additional observations from a re-analysis of the deposited data

How the results depend on the processing

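No let-7 row passed an adjusted p of 0.05 in any comparison under any alternative tried, over 1045 values. The smallest adjusted p was 0.054, with only the compared groups in the edgeR fit. Signs are less stable: 120 of these values changed sign, 50 of them when 1 mouse was left out. The cause was not tested, here or below.

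For let-7a-1 the log2 fold change in uninjected against WT mice became -0.019 without the 2 libraries lowest in photoreceptor miRNAs, and ran from -0.10 to 0.22 with 1 mouse left out. In human gRHO against uninjected mice it became -0.016 with mature reads alone as the scale and -0.19 without rRNA-rich libraries, and ran from -0.074 to 0.32. Without rRNA-rich libraries only uninjected mouse 1 was left in the uninjected group, here and for let-7c-2 below. Saline against uninjected was then 1 mouse against 1. In human gRHO against mouse gRho mice it ran from -0.32 to 0.026. For let-7c-2 it became -0.057 in mouse gRho against uninjected mice without rRNA-rich libraries (-0.042 to 0.30 with 1 mouse left out), 0.027 in human gRHO against uninjected mice on total reads (-0.29 to 0.092), and in saline against uninjected mice -0.048 on mature reads and -0.11 without rRNA-rich libraries (-0.027 to 0.30).

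The fit without rRNA-rich libraries kept 1 uninjected mouse, so its calls against WT are not listed. Among all rows, uninjected against WT gave 6 calls, 11 with DESeq2 or no count filter, and 1 with two-level rows kept. It gave 0 with only the groups compared or without the 2 libraries. With 1 mouse left out it gave 0 to 60 calls, 60 without WT mouse 1 and 0 without WT mouse 2. Mouse gRho against WT gave 12, 7 on mature reads or without rRNA-rich libraries, 19 with each library as a sample, and 0 to 64 with 1 mouse left out, 64 without WT mouse 1 and 0 without WT mouse 2. Mouse gRho against uninjected gave 0, 1 with two-level rows kept and 0 to 1 with 1 mouse left out, as did human gRHO against mouse gRho. With libraries as samples, the log2 ratios in mouse gRho against WT differed by 0.27 for let-7c-2 over let-7a-1 and -1.20 for let-7d over let-7a-1. Each had p = 0.0256 in the exact permutation test, again the smallest it can give. It is lower than with mice only because this setting counts eyes of a mouse as independent.

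No pairing of samples between groups was possible because the labels carry no replicate numbers. Numbers given to samples in accession order only name them. The fit without the 2 libraries and the tests of these ratios were chosen after seeing the data. Groups of 1 to 3 mice, and rows near 1 CPM, limit the precision.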
